A study of Mus musculus with 6 samples.

Results

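Before a fibrillar collagen can form a stable fiber, its chains have to be hydroxylated, folded, trimmed and crosslinked, and 10 genes that encode proteins of these steps were followed by RNA-Seq of mouse liver on a diet deficient in methionine and choline (MCD diet). The genes were fixed by name, with earlier results of these data known. They were Lox, Loxl1, Loxl2, Loxl3, Plod1, Plod2, P4ha1, P4ha2, Serpinh1 and Pcolce. Each had a single row among the 40481 genes of the series table. All 10 passed the filter on low counts, which 17287 genes passed.

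Prolyl 4-hydroxylases, made of P4ha and P4hb subunits, hydroxylate prolines in procollagen in the endoplasmic reticulum, which lets the triple helix hold together at body temperature. Lysyl hydroxylases (Plod genes) modify lysines that later carry sugars or form crosslinks, and Hsp47, the product of Serpinh1, is a chaperone that binds folded procollagen. After secretion the propeptides are removed, a step that Pcolce enhances, and the copper enzymes lysyl oxidase (Lox) and its Lox-like relatives oxidize lysines so that neighboring molecules become covalently crosslinked. In fibrotic liver these proteins are made mainly by activated stellate cells and portal fibroblasts, and crosslinked collagen is known to be harder to degrade.

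All mice were male, on a C57BL/6 background and 12 to 16 weeks old. Mttp-IKO mice were Mttp f/f Villin Cre ERT2 mice that had received tamoxifen (50 µg per g body weight per day for 5 days), which induces loss of the microsomal triglyceride transfer protein that intestine needs to assemble chylomicrons. The study's methods describe the controls as vehicle-injected littermates of these mice, which would then carry the floxed alleles and the Cre transgene as well, whereas the labels and another passage of the study call them wild type. From 3 weeks after the injections both groups ate MCD diet for 3 weeks and were fasted for 4 h before tissue was taken. Total liver RNA was combined into 3 control and 3 Mttp-IKO pools, each from 3 to 4 mice, so n is the number of pools. The Villin promoter drives Cre in the intestinal epithelium, and the deletion itself cannot be checked in liver, where Mttp differed by a log2 fold change of -0.06 (adjusted p = 0.926, edgeR). Tamoxifen was given to Mttp-IKO mice and not to controls, so gene loss and tamoxifen exposure cannot be told apart.

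The pools held 25271585 to 36238734 reads on genes, and a count of 0 would allow up to 0.0828 to 0.119 CPM (a pool's count of a gene relative to its library size), for counting error only. Alb, the hepatocyte gene for serum albumin, averaged 79452 CPM, which fits the liver label. In control pools 1 and 2, 8 striated muscle markers summed to 118 and 890.1 CPM, against 0.545 to 1.45 CPM in the other 4 pools. Small RNA genes took 0.642% of reads in Mttp-IKO pool 3 and 3.60% to 5.27% in the other 5 pools.

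Across the 10 genes, 5 fell in Mttp-IKO livers and none rose. The test was edgeR's quasi-likelihood test with Benjamini-Hochberg adjustment over all 17287 genes and a threshold of 0.05. The genes that fell were Lox, Loxl1, Loxl2, Serpinh1 and Pcolce, whereas 3.09% of all genes tested were called lower and 0.92% higher. In RNA of whole liver, fewer cells of a type and less RNA per cell cannot be told apart. In 7 genes all 3 Mttp-IKO pools lay below all 3 control pools, which held for 16.5% of all genes tested. The log2 fold change was below 0 in 9 of the 10 genes and in 49.5% of all genes tested. The median log2 fold change was -1.58, against 0.01 over all genes tested. As the 10 genes were chosen with earlier results of these data known, these contrasts with all genes are not an independent test. Leaving out control pool 2, which had the most muscle RNA, gave 6 calls, and leaving out Mttp-IKO pool 3 gave 3. No gene of the 10 was called at an adjusted p under 0.05 without control pool 1, control pool 3, Mttp-IKO pool 1 or Mttp-IKO pool 2, while 7 or 8 had an unadjusted p under 0.05 in edgeR in each case, as did 14.0% to 24.8% of all genes tested in these fits. In the fit of all 6 pools, 7 of the 10 genes and 23.0% of all genes tested had an unadjusted p under 0.05.

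**Figure D1:**
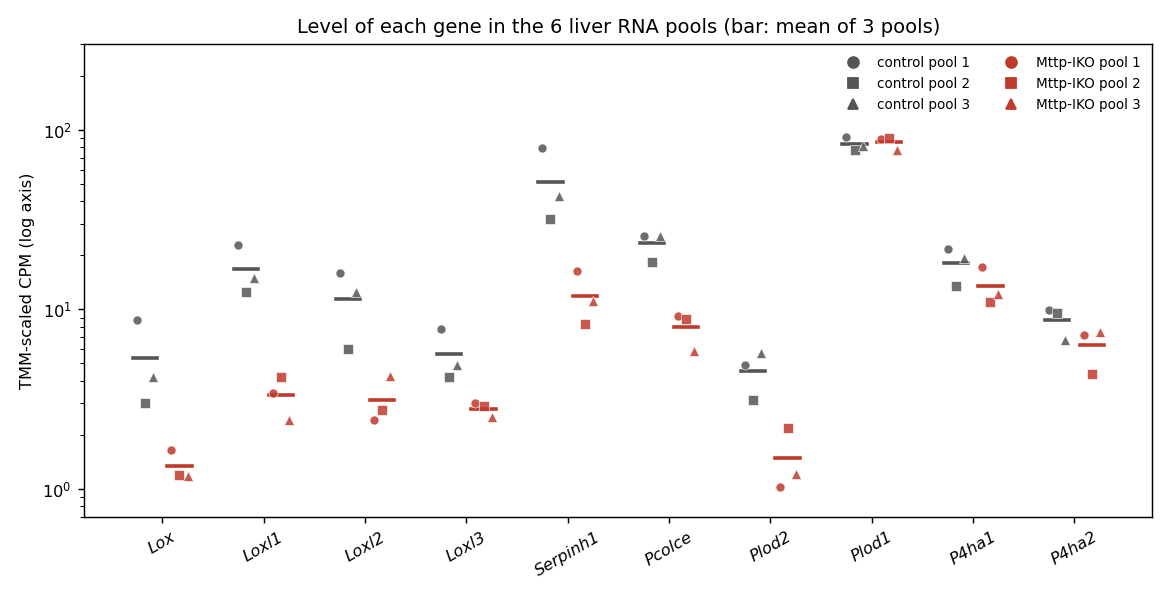
Level of each of the 10 genes in every pool, in CPM scaled by the trimmed mean of M values (TMM), on a log axis, with points for the 3 control and 3 Mttp-IKO pools and a bar for each group mean. The groups are separate for Lox, Loxl1, Loxl2, Loxl3, Plod2, Serpinh1 and Pcolce, and overlap for Plod1, P4ha1 and P4ha2.

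Sequences are shown where they bear on how these genes were counted or on what lies upstream of them. The study's text gives quantitative PCR of Loxl1 only for experiments where Mttp deletion followed MCD feeding, not for the livers sequenced here. That assay was designed for Loxl1, the gene of the 10 with the largest fall in the sequenced livers. Its primers, forward CCGCAGCAGTTCCCCTATC and reverse CGCGGGATCGTAGTTCTCAT, matched transcripts of 1 gene and enclose a product of 63 nt in the coding part of exon 1 (chr9:58312302-58312364, minus strand, GRCm38). Capitals mark the bases bound by the primers.
Loxl1 product: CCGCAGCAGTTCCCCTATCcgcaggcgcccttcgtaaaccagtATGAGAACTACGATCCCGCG
The study's Lox primers also gave a product of 63 nt, in exons 3 and 4 of Lox. The enzymes of a family are related in sequence, and only reads with a single place in the genome had been counted. The longest run of identical bases shared by transcripts of Loxl1 and Loxl2 was 28 nt and that of Loxl2 and Loxl3 was 26 nt.
Loxl1 and Loxl2: cacaaggccagcttctgcctggaggaca
Loxl2 and Loxl3: ggcaccaaggtggctgagggccacaa
Lox and Loxl1 shared a run of 32 nt. In the hydroxylases the longest runs were 15 nt between Plod1 and Plod2, and 16 nt between P4ha1 and P4ha2.

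Promoter sequences from RefSeq (GRCm38.p6) were matched for 5 of the 10 genes, Plod1, Pcolce, Serpinh1, P4ha1 and P4ha2. The 250 bases before the start site are printed for Serpinh1 and Pcolce, which fell, and for Plod1, whose groups overlapped. The start sites used for Pcolce and P4ha2 lie inside the gene spans given below, so their windows lie inside these spans too. Capitals mark the GC box GGGCGG and the core of hypoxia response elements, ACGTG, each searched on both strands, so that CCGCCC and CACGT are the same motifs read from the other strand. These letters are descriptions of the windows and are not known binding sites here.
Serpinh1, chr7:99353240-99353489, minus strand: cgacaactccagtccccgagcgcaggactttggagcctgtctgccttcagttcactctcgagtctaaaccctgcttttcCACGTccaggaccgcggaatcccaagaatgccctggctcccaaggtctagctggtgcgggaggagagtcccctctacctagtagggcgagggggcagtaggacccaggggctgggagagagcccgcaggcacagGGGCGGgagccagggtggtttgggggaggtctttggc
Pcolce, chr5:137611405-137611654, minus strand: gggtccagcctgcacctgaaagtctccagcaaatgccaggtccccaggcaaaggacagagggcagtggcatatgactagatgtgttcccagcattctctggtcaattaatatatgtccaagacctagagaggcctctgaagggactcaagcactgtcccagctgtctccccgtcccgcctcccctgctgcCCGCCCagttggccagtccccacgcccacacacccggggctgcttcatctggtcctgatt
Plod1, chr4:147936777-147937026, minus strand: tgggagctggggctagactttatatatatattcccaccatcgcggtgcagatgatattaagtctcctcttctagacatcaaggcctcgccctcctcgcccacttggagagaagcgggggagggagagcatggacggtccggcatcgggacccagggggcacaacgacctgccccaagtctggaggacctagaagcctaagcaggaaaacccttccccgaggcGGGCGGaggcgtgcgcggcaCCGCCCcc
A GC box was in all 5 windows and in 32.7% of the 32851 promoters of the same length. It began 37 bases before the start site in Serpinh1, 60 bases before it in Pcolce, and 28 and 8 bases before it in Plod1. ACGTG was in the windows of Serpinh1, P4ha1 and P4ha2 and in 16.6% of all promoters. It began 171, 16 and 78 bases before their start sites. The letters CAGAC, the short element bound by SMAD proteins, were in the windows of Plod1 and Serpinh1 and in 42.2% of all promoters, and TATAAA was in that of Plod1 alone and in 12.4% of all promoters. None of the 5 windows held CCAAT, the AP-1 site TGANTCA or the heat shock letters GAANNTTC. These were in 33.8%, 6.75% and 6.69% of all promoters.

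Among the crosslinking enzymes, the largest group of the genes followed, Lox, Loxl1 and Loxl2 were called and Loxl3 was not. Serpinh1 and Pcolce, each the only gene followed for its step, were called too. Lox, which encodes lysyl oxidase (ENSMUSG00000024529, chromosome 18, 52516069 to 52529867, GRCm38), had 8.75, 3.02 and 4.22 CPM in control pools 1 to 3, against 1.64, 1.20 and 1.17 CPM in Mttp-IKO pools 1 to 3. Every Mttp-IKO pool was below every control pool, and control pool 1 stood highest. The mean was 5.33 ± 3.02 CPM in controls and 1.34 ± 0.264 CPM in Mttp-IKO livers (SD, n = 3), a log2 fold change of -1.99 (SE 0.425, adjusted p = 0.0456, edgeR). This call was lost with limma-voom (adjusted p = 0.0856) and in 5 of the 6 fits that left out a pool, where the log2 fold change was -2.29 to -1.44. An antisense gene, AC161119.1, overlaps Lox, and whether counting used the strand is not stated.

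Loxl1, a Lox-like enzyme known for its role in elastic fibers (ENSMUSG00000032334, chromosome 9, 58287723 to 58313212), had 22.8, 12.4 and 14.9 CPM in the control pools. The 3 Mttp-IKO pools had 3.42, 4.18 and 2.43 CPM. The lowest control pool was 2.97 times the highest Mttp-IKO pool, the widest gap between groups among the 10 genes. Means were 16.7 ± 5.39 and 3.34 ± 0.878 CPM (SD, n = 3), so the fitted level in Mttp-IKO livers was 20.1% of that in controls. Its log2 fold change was -2.32, with a 95% confidence interval of -3.0 to -1.63 and an adjusted p of 0.0175 in edgeR.

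For Loxl2, which oxidizes lysines of collagen IV among other substrates (ENSMUSG00000034205, chromosome 14, 69609068 to 69695834), control pools had 15.8, 6.02 and 12.4 CPM and Mttp-IKO pools 2.42, 2.74 and 4.28 CPM. The groups did not overlap, and control pool 2 was 1.41 times Mttp-IKO pool 3. The means of 11.4 ± 4.99 and 3.15 ± 0.994 CPM (SD, n = 3) gave a log2 fold change of -1.87 (95% confidence interval -2.75 to -0.98, adjusted p = 0.0422, edgeR). With limma-voom its adjusted p was 0.0732. Gm27177 and Gm37513 overlap Loxl2 on the opposite strand.

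Loxl3, another lysyl oxidase with scavenger receptor domains (ENSMUSG00000000693, chromosome 6, 83034173 to 83052562), had 7.74, 4.19 and 4.90 CPM in control pools, whereas Mttp-IKO pools had 3.0, 2.88 and 2.52 CPM. The groups were separate, and the Mttp-IKO pools lay close together. The difference, a log2 fold change of -1.0 (95% confidence interval -1.65 to -0.35), did not pass the threshold in edgeR (adjusted p = 0.0897), although DESeq2 gave an adjusted p of 0.0233. The gene overlaps Htra2, which encodes a mitochondrial protease and is read from the other strand. Htra2 had 9.43 ± 0.601 CPM in controls and 8.38 ± 2.38 CPM in Mttp-IKO livers (SD, n = 3, adjusted p = 0.706, edgeR).

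Serpinh1, whose product Hsp47 escorts procollagen to the Golgi (ENSMUSG00000070436, chromosome 7, 99345375 to 99353230), had 79.2, 32.0 and 42.9 CPM in control pools, against 16.2, 8.30 and 11.2 CPM in the 3 Mttp-IKO pools. All 3 Mttp-IKO pools were below the lowest control pool, and control pool 1 was well above the other controls. Group means were 51.3 ± 24.7 and 11.9 ± 4.03 CPM (SD, n = 3), with a log2 fold change of -2.11 (95% confidence interval -2.98 to -1.24, adjusted p = 0.0298, edgeR). Without control pool 1 the log2 fold change was -1.67 (adjusted p = 0.0897, edgeR).

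Pcolce encodes a secreted protein that speeds cleavage of the C-propeptide by Bmp1 (ENSMUSG00000029718, chromosome 5, 137605103 to 137613784). Its control pools had 25.7, 18.4 and 25.7 CPM and its Mttp-IKO pools 9.16, 8.88 and 5.83 CPM. The lowest control pool was 2.01 times the highest Mttp-IKO pool. With means of 23.3 ± 4.20 and 7.96 ± 1.85 CPM (SD, n = 3), the log2 fold change of -1.55 had the smallest standard error of the 5 called genes (SE 0.232, adjusted p = 0.0192, edgeR). Fbxo24 overlaps Pcolce on the same strand, and reads that fit both genes were not counted. An antisense gene, Gm36266, overlaps Pcolce on the opposite strand.

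The fold changes of both lysyl hydroxylases lay far apart. Plod1, which hydroxylates helical lysines of fibrillar collagen (ENSMUSG00000019055, chromosome 4, 147909753 to 147936767), had 91.4, 76.9 and 81.5 CPM in controls and 89.3, 89.4 and 77.4 CPM in Mttp-IKO pools. These ranges overlap almost wholly. The means were 83.3 ± 7.42 and 85.4 ± 6.91 CPM (SD, n = 3), and the interval of the log2 fold change (95%, -0.31 to 0.38) excludes a fall of the size seen in the 5 called genes. The adjusted p was 0.911 in edgeR, and the sign of the log2 fold change, 0.04, turned negative under total count scaling (-0.15, where the median of all genes was -0.17) and without control pool 2 (-0.04) or control pool 3.

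Plod2 hydroxylates telopeptide lysines, which leads to the crosslinks typical of scar tissue (ENSMUSG00000032374, chromosome 9, 92542223 to 92608428). It had 4.88, 3.13 and 5.68 CPM in control pools, compared with 1.03, 2.19 and 1.22 CPM in Mttp-IKO pools, with counts of 29 to 197 reads. The groups were separate, with Mttp-IKO pool 2 nearest to the controls. Means of 4.57 ± 1.31 and 1.48 ± 0.625 CPM (SD, n = 3) gave a log2 fold change of -1.62 (95% confidence interval -2.48 to -0.76), just outside the threshold in edgeR (adjusted p = 0.0539). It was past the threshold with DESeq2 (adjusted p = 0.00111), with total count scaling (0.0325), with no filter on low counts (0.0287), with the gene length trend removed (0.0494) and without control pool 2 (0.0395). Gm38391 overlaps Plod2 on the opposite strand. The ratio of Plod2 to Plod1 reads was 0.0536, 0.0409 and 0.0700 in control pools and 0.0117, 0.0247 and 0.0160 in Mttp-IKO pools. It was lower in every Mttp-IKO pool, by 1.68 on the log2 scale (difference -1.68, two-sided exact permutation p = 0.1, which no split of 6 pools into equal groups can go below).

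Among the prolyl 4-hydroxylase subunits, P4ha1, the main catalytic subunit in most cells (ENSMUSG00000019916, chromosome 10, 59323296 to 59373304), had 21.8, 13.5 and 19.3 CPM in control pools, compared with 17.2, 11.0 and 12.2 CPM in Mttp-IKO pools. P4ha2, an alternative catalytic subunit (ENSMUSG00000018906, chromosome 11, 54100095 to 54131665), had 9.92, 9.54 and 6.78 CPM in controls and 7.22, 4.39 and 7.51 CPM in Mttp-IKO pools. In both genes the groups overlapped. The log2 fold changes were -0.43 for P4ha1 (95% confidence interval -0.99 to 0.13, adjusted p = 0.328, edgeR) and -0.46 for P4ha2 (95% confidence interval -1.06 to 0.15, adjusted p = 0.336, edgeR). Both intervals include 0 and reach close to the log2 fold change of Loxl3. The ratio of P4ha2 to P4ha1 reads differed by -0.05 on the log2 scale between the groups (exact permutation test, two-sided p = 0.9).

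The 10 genes are part of a longer list of 41 genes for collagen maturation, of which 38 were tested. In it 8 genes were called lower and 0 higher, and 18 of the 38 had an unadjusted p under 0.05 in edgeR, as did 23.0% of all genes tested. Apart from the 10, 28 genes were tested and 3 fell. P3h3, a prolyl 3-hydroxylase, had 8.46 ± 1.88 CPM in controls and 2.48 ± 0.401 CPM in Mttp-IKO livers (SD, n = 3, log2 fold change -1.77, adjusted p = 0.0181, edgeR). Sparc, a collagen-binding matrix protein, was at 143 ± 51.3 and 43.3 ± 6.29 CPM (SD, n = 3, log2 fold change -1.72, adjusted p = 0.0231, edgeR). The N-propeptidase gene Adamts2 was at 33.2 ± 9.06 and 10.9 ± 2.21 CPM (SD, n = 3, log2 fold change -1.61, adjusted p = 0.0223, edgeR). The median log2 fold change of these 28 genes was -0.22, nearer to the 0.01 of all genes tested than to the -1.58 of the 10. By step, 3 of 6 crosslinking genes, 2 of 6 genes of propeptide removal, 2 of 10 of chaperones and export, 1 of 9 of prolyl hydroxylation and 0 of 7 of lysyl hydroxylation and glycosylation were called, all of them lower (edgeR). Of the lysyl list, 2 of 7 genes had an unadjusted p under 0.05 in edgeR, near the 23.0% of all genes tested.

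Direct partners and relatives of the 10 genes gave mixed values. Bmp1, the C-propeptidase that Pcolce enhances, had 102.5, 133.6 and 114.9 CPM in control pools, compared with 178, 192 and 176 CPM in Mttp-IKO pools. Its groups were separate in the other direction from Pcolce, with a log2 fold change of 0.64 that did not pass the threshold (adjusted p = 0.0720, edgeR). P4hb, the shared subunit of prolyl 4-hydroxylases and a general disulfide isomerase, was at 1479 ± 19.0 and 1632 ± 376.9 CPM (SD, n = 3, adjusted p = 0.739, edgeR). Fkbp10, a foldase that supports lysyl hydroxylation, had a log2 fold change of -1.47 (adjusted p = 0.0602, edgeR), with separate groups. For Loxl4, Plod3 and Pcolce2 the groups overlapped, with log2 fold changes of -0.31, -0.26 and -0.29. P4ha3, at 0.0338 to 0.422 CPM, did not pass the filter.

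**Figure D2:**
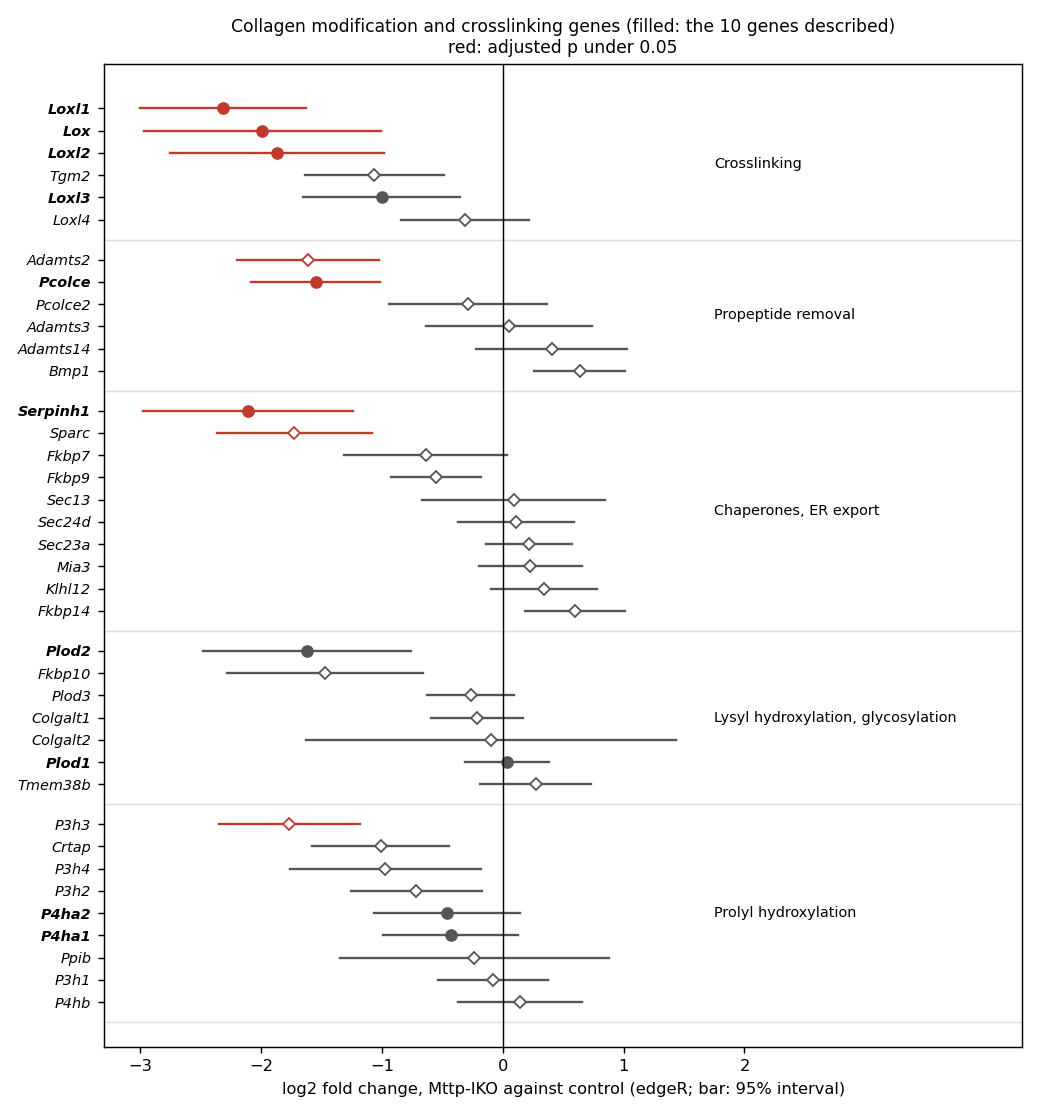
Log2 fold change of Mttp-IKO against control for the tested genes of collagen maturation, grouped by step, with bars for the 95% confidence interval of the edgeR fit, filled circles and bold names for the 10 genes, open diamonds for the others, and red for an adjusted p under 0.05. The red genes all lie below 0, from -1.55 in Pcolce to -2.32 in Loxl1, while Plod1 sits at 0.04 and Bmp1 at 0.64.

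Per kilobase of gene length (RPKM, which is CPM divided by the length in kilobases), Serpinh1 had the highest mean level of the 10 genes in controls, 21.1, followed by Plod1 at 12.3, Pcolce at 6.09, Loxl1 at 5.0 and P4ha1 at 4.42. The ranges of Serpinh1 and Plod1 over the control pools overlapped. Within each control pool, though, Serpinh1 stood above Plod1 (32.5, 13.1 and 17.6 RPKM against 13.5, 11.4 and 12.0). The ranges of Pcolce, Loxl1 and P4ha1 overlapped too, whereas those of Plod1 and Pcolce, and of P4ha1 and Loxl2, were separate. Below them came Loxl2 at 2.11, P4ha2 at 1.4, Loxl3 at 1.34, Lox at 1.11 and Plod2 at 0.847 RPKM, each overlapping its neighbor. In Mttp-IKO livers Plod1 led with 12.6 RPKM and was separate from all others. Serpinh1 followed with 4.89 and P4ha1 with 3.28. Their ranges overlapped, but Serpinh1 stood above P4ha1 within every Mttp-IKO pool. Then came Pcolce with 2.08, P4ha2 with 1.02, Loxl1 with 1.0, Loxl3 with 0.667, Loxl2 with 0.582, Lox with 0.279 and Plod2 with 0.275 RPKM. P4ha1 stood above Pcolce and Loxl1 within every Mttp-IKO pool. Within control pools 1 to 3 it stood below Pcolce each time (5.29, 3.29 and 4.69 RPKM against 6.72, 4.82 and 6.73), and below Loxl1 in pools 1 and 2 (6.82 and 3.72 RPKM for Loxl1) but above it in pool 3 (4.47).

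Within the lysyl oxidase family, counted as the summed RPKM of its 5 genes, control pools had 14.3, 7.59 and 9.90 and Mttp-IKO pools 3.45, 3.56 and 3.06. Loxl1 made up 47.7%, 49.1% and 45.2% of the sum in control pools and 29.6%, 35.2% and 23.8% in Mttp-IKO pools. Its share was lower in all Mttp-IKO pools (47.3 ± 1.97% and 29.6 ± 5.70%, SD, n = 3, exact permutation test, two-sided p = 0.1). The share of Loxl3 was 12.6 ± 0.716% in controls and 19.9 ± 0.739% in Mttp-IKO livers, and that of Loxl4 was 10.6 ± 4.34% and 24.6 ± 2.05% (SD, n = 3, exact permutation p = 0.1 for each). Both shares were higher in every Mttp-IKO pool, although neither gene's level was. Lox and Loxl2 kept overlapping shares, with means of 9.96% and 19.5% in controls and 8.29% and 17.7% in Mttp-IKO livers. The ratio of Loxl3 to Lox reads was 0.884, 1.38 and 1.16 in control pools and 1.82, 2.38 and 2.12 in Mttp-IKO pools (1.86 times as high, exact permutation p = 0.1), the other ratio besides Plod2 to Plod1 that separated the groups among 6 pairs compared.

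The lysyl hydroxylase sum overlapped between the groups, at 22.5, 18.4 and 19.9 RPKM in controls and 19.9, 18.9 and 17.6 RPKM in Mttp-IKO pools. Plod1 gave most of it, 60.8% in controls and 67.1% in Mttp-IKO livers on average. Plod2 gave 4.02%, 3.16% and 5.30% in control pools and 0.961%, 2.15% and 1.28% in Mttp-IKO pools. For the prolyl 4-hydroxylase subunits the share of P4ha1 was 74.7% and 75.9% on average and overlapped.

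**Figure D3:**
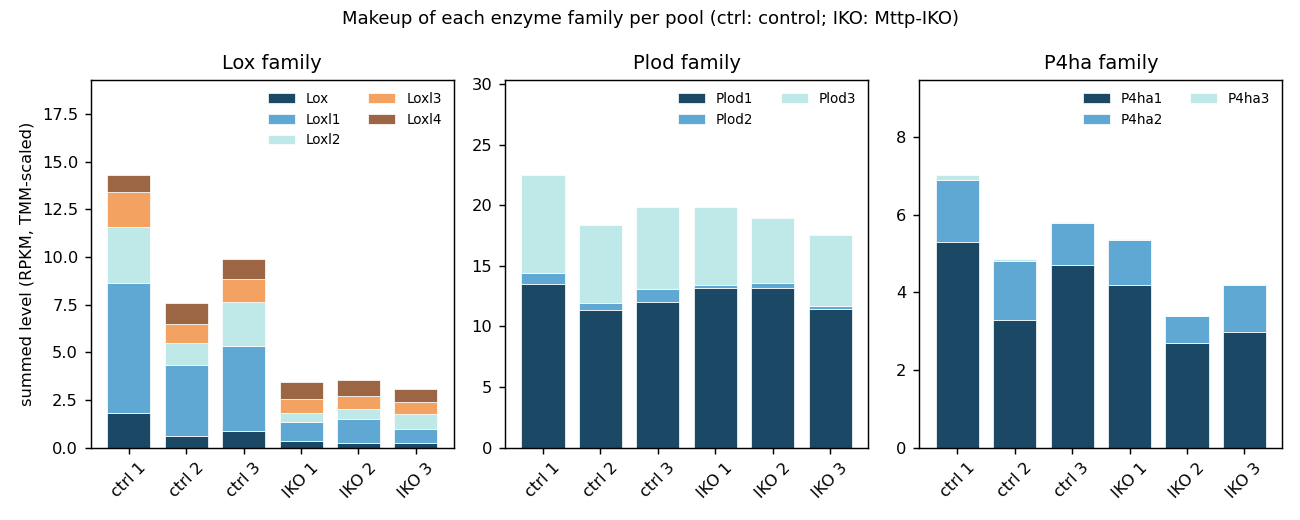
Stacked TMM-scaled RPKM of the genes of the Lox, Plod and P4ha families in each of the 3 control and 3 Mttp-IKO pools, with 1 bar per pool and 1 panel per family. The Lox family bars reach 7.59 to 14.3 RPKM in control pools and 3.06 to 3.56 RPKM in Mttp-IKO pools, with Loxl1 shrinking most, while the Plod and P4ha bars overlap between the groups.

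Among the collagen substrates of these enzymes, Col1a1, Col1a2 and Col3a1 had log2 fold changes of -3.72, -2.88 and -3.93, each further from 0 than any of the 10 genes. Col1a1, which encodes the α1 chain of type I collagen, had 345, 102.0 and 240.2 CPM in control pools, compared with 20.5, 12.3 and 19.2 CPM in Mttp-IKO pools. All 5 fibrillar collagen genes examined (Col1a1, Col1a2, Col3a1, Col5a1 and Col5a2) were called lower in edgeR, with a median log2 fold change of -2.88. Col5a1 and Col5a2 fell less than the other collagens, with log2 fold changes of -1.86 and -2.34. Col5a1 thus fell less than Loxl1, Serpinh1 and Lox (-2.32, -2.11 and -1.99). Col5a1 and Col5a2 were not part of the collagen sum used below. Reads of Col1a1, Col1a2 and Col3a1 together numbered 38672, 11283 and 21563 in control pools and 1915, 1374 and 1332 in Mttp-IKO pools. Control pool 2 was lowest of the controls both in this sum and in 9 of the 10 genes, and control pool 1 was highest in 8 of the 10.

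Expressed per 1000 reads of these 3 collagens, each of the 10 genes was therefore higher in every Mttp-IKO pool than in any control pool (exact permutation test, two-sided p = 0.1 for each), as were 95.9% of all genes tested. The median ratio over all genes tested was 10.6 times as high as in controls, and the 10 genes are read against it. Loxl1 had 23.8, 39.7 and 22.2 reads per 1000 collagen reads in control pools and 55.6, 89.1 and 43.9 in Mttp-IKO pools, 2.18 times as many by the ratio of geometric means, which is used for all 10 genes. Serpinh1 had 82.6, 102.2 and 63.7 in controls and 176 to 263 in Mttp-IKO pools, 2.59 times as many. In 1.38% of all genes tested was the difference smaller than in Loxl1, and in 1.94% smaller than in Serpinh1. Every gene is divided by the same collagen sum in a pool, so this order is that of the genes' own changes in reads. The ratio was 2.99-fold higher in Lox, 3.11-fold in Loxl2, 3.44-fold in Plod2, 3.65-fold in Pcolce and 5.56-fold in Loxl3. P4ha1 and P4ha2 (7.99-fold and 7.74-fold) and Plod1 (11.0-fold) were nearer to the median gene. For Plod1 the ratio was 95.4, 246 and 121 in control pools and 1447, 1897 and 1385 in Mttp-IKO pools.

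**Figure D4:**
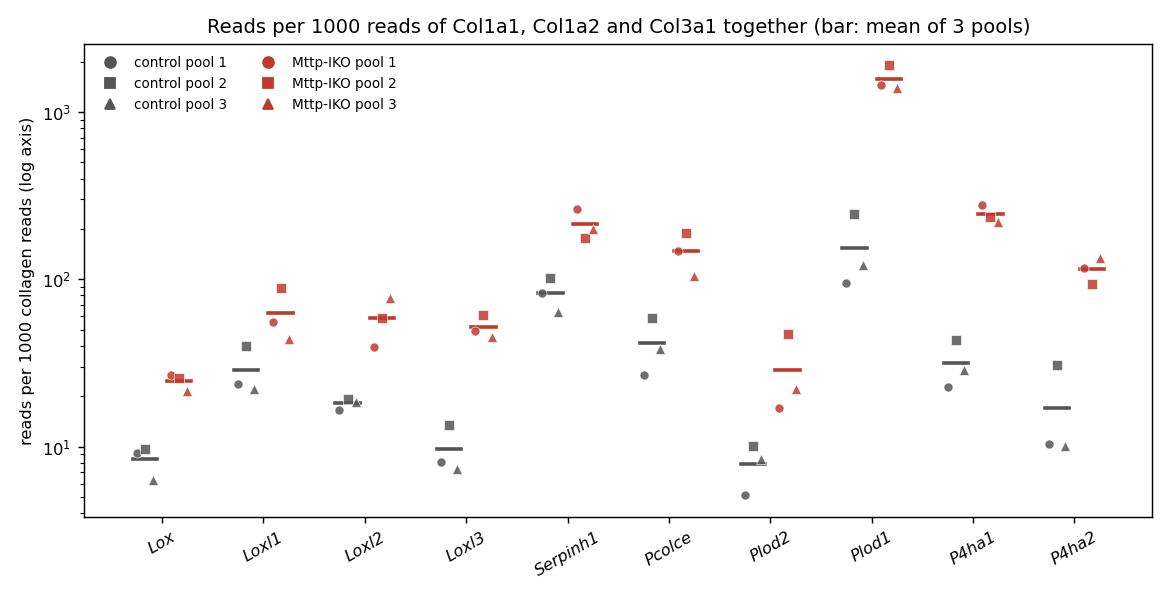
Reads of each of the 10 genes per 1000 reads of Col1a1, Col1a2 and Col3a1 together, on a log axis, with a point for each of the 3 control and 3 Mttp-IKO pools and a bar for each group mean. All Mttp-IKO points lie above the control points. The ratio of geometric means was 2.18-fold in Loxl1 to 11.0-fold in Plod1, against a median of 10.6-fold over all genes tested. The bars are arithmetic means.

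Marker lists of stellate cells, portal fibroblasts and recruited macrophages each held some genes that fell. The summed level of 10 stellate cell and myofibroblast markers ranged from 736 to 941 CPM in control pools, but from 484 to 571 CPM in Mttp-IKO pools, and 5 of the 10 fell. These were Lrat, which esterifies retinol (-1.71 on the log2 scale), Acta2 (-2.02), Pdgfrb (-1.20), Colec11 (-1.65) and Lum (-1.81). The most abundant markers, Reln and Dcn, both at -0.44 (adjusted p = 0.235 for each, edgeR), overlapped between the groups. Des, another of these markers, had 19.1, 68.1 and 12.5 CPM in control pools 1 to 3. Control pool 2 also had the most striated muscle RNA, whose part in Des and in the summed level was not tested. Of 8 portal fibroblast and mesothelial markers 2 fell, Fbln1 and Fbln2, and their sum was 117 to 149 CPM in controls and 49.1 to 80.0 CPM in Mttp-IKO pools. Of 6 recruited macrophage markers 4 fell (Trem2, Ccr2, Itgax and Mmp12), with sums of 305 to 959 and 71.9 to 167 CPM. The genes named from these lists, and the hepatocyte, cholangiocyte and Kupffer cell markers named next, were picked after their values were seen.

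The other liver cell types gave no called marker in the direction of the enzymes. Hepatocyte markers (6 genes, 0 called by edgeR and 4 with an unadjusted p under 0.05) summed to 53672 to 89369 CPM in controls and 106516 to 161915 CPM in Mttp-IKO pools, with no overlap. Alb made up most of this sum in every pool. Of the 6 markers only Ttr had a log2 fold change below 0 (-0.55, adjusted p = 0.290, edgeR). Every Mttp-IKO pool was below every control pool for Ttr. Sinusoidal endothelial markers summed to 335 to 398 and 341 to 394 CPM with 0 of 6 called in edgeR and 0 at an unadjusted p under 0.05. Cholangiocyte markers, with 0 of 6 called and 2 at an unadjusted p under 0.05 in edgeR, summed to 69.6 to 195.8 and 49.8 to 94.7 CPM. Both of the latter, Epcam and Spp1, were lower (log2 fold changes of -1.22 and -1.21), and 5 of the 6 markers lay below 0. Spp1 made up most of the sum in every pool. Among 6 Kupffer cell markers Timd4 rose and none fell in edgeR, and 4 had an unadjusted p under 0.05, of which Adgre1 and Cd5l had log2 fold changes of -0.98 and -0.74 and Timd4 and Marco of 1.16 and 1.31. The sums were 320 to 489.9 and 244 to 583 CPM. Of the adipocyte, pancreatic acinar and striated muscle markers 2 of 6, 1 of 7 and 2 of 8 were tested and none was called by edgeR, with 1, 0 and 2 at an unadjusted p under 0.05. The adipocyte sums were 60.4 to 125 and 34.7 to 107 CPM, and those of pancreatic acinar genes 5.90 to 7.15 and 3.10 to 6.38 CPM. No marker of these lists was at 0 in all pools. The part of stellate cells, portal fibroblasts, macrophages and hepatocytes in the lower enzyme levels was not tested.

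Several of the 10 genes are known targets of hypoxia or stress pathways in other settings, so lists of such targets were set beside them. P4ha1, P4ha2, Plod1, Plod2 and Lox are known to respond to hypoxia-inducible factor. Of 18 other targets of this factor 1 rose, the mitophagy receptor gene Bnip3 (60.0 ± 3.05 and 112 ± 24.8 CPM, SD, n = 3, log2 fold change 0.89, adjusted p = 0.0478, edgeR), and none fell. The median of the 18 was 0.16, with Ldha at 0.15, Eno1 at 0.03, Aldoa at -0.19 and Pgk1 at 0.05. An unadjusted p under 0.05 in edgeR was found in 6 of the 18, against 23.0% of all genes tested. The groups were separate upward in 5 of the 18 and downward in 2, against 14.5% and 16.5% of all genes tested. Serpinh1 is a heat shock gene. Of 10 other heat shock genes 1 fell, the small chaperone gene Hspb1 (means of 33.9 and 8.77 CPM, n = 3, log2 fold change -1.95, SE 0.343, adjusted p = 0.0292, edgeR), and the median was -0.30. Among these 10 heat shock genes, 2 had an unadjusted p under 0.05 in edgeR. General chaperones of the endoplasmic reticulum had 0 of 13 called at the threshold and 1 at an unadjusted p under 0.05 in edgeR, with a median log2 fold change of -0.18. Serpinh1, at -2.11, thus lay below the medians of both chaperone lists. Bnip3 and Hspb1 were picked after their values were seen.

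The genes whose levels over the 6 pools most resembled each of the 10 were taken from 11789 protein-coding genes by Pearson's r of log2 CPM. With 6 points, of which 3 are controls, such values are descriptive and are high for many genes. The number of genes with r above 0.95 was 323 for Lox, 341 for Loxl1, 300 for Loxl2, 224 for Loxl3, 302 for Serpinh1 and 352 for Pcolce, 138 for Plod2 and 56 for P4ha1, but only 13 for Plod1 and 6 for P4ha2. Closest to Lox were Cd200, Cd24a and Plat, and closest to Loxl1 were Gsta2, Palm and Ntn4. Loxl2 was most like Tmem229b, Cbx6 and Hmcn1, and Loxl3 most like Pde4a, Cdh5 and Lrmp. Serpinh1 was nearest to Akr1b10, to the prolyl 3-hydroxylase gene P3h2 and to Sh3bp4, and Pcolce to Mlph, the mesenchymal filament gene Vim and Cd83. For Plod2 these were Adamts5, Btk and Sfxn3, and for Plod1 Vnn3, Rap1gap and Lcn2. P4ha2 came closest to Tmtc4, Cyp2a5 and Aox1. Pearson's r of the most similar gene lay between 0.983 and 0.998 for the 10 genes. With Col1a1 the r over the same pools was 0.977 for Serpinh1, 0.959 for Lox, 0.788 for P4ha1 and -0.02 for Plod1.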

How the data were processed

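Liver RNA pools of MCD-fed mice (3 control, 3 Mttp-IKO) were sequenced after ribosomal RNA depletion (KAPA RiboErase). Per the submitters' processing notes and the article, reads were aligned to GRCm38 (Ensembl release 76) with STAR 2.5.1a, and featureCounts 1.4.6-p5 counted uniquely aligned, unambiguous reads. The authors deposited unnormalized read counts for 41388 genes per pool. They also deposited CPM and RPKM values computed from the counts, in a form that the counts reproduce in all 6 files, so tests used counts only. A deposited table of all pools held 40481 of these genes with equal counts, and its 276 repeated lines were dropped. The count columns were mapped to samples by name, and none was left over. A pool is a replicate, so p-values measure the spread between pools, which is smaller than that between mice.

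Genes were kept by filterByExpr (minimum count 10, minimum total 15), scaled by TMM (factors 0.898 to 1.11) and compared with glmQLFit and glmQLFTest of edgeR 4.0.16 in R 4.3.3, with Benjamini-Hochberg adjustment and a threshold of 0.05. CPM and RPKM in the text are TMM-scaled, and RPKM uses the exon length of each gene. Ratios of reads (0.5 added to each sum) and shares were compared by exact permutation tests (scipy 1.17.1). No pair of pools agreed within sampling noise. Alternatives were other scalings, DESeq2 1.42.0, limma-voom (limma 3.58.1), other filters, a replicate block, removal of the length trend (loess span 0.3), and leaving out each pool.

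The 10 genes and all lists were chosen with earlier results of these data known. Named in full were the 10 genes, their direct paralogs and partners, other pathway genes with an adjusted p under 0.05, up to 4 genes of highest mean CPM per context or marker list, and the 3 genes most like each of the 10 (those for P4ha1 are not reported here). Primers were matched to GENCODE M21 transcripts, and promoters came from RefSeq (GRCm38.p6). Promoters of Lox, Loxl1, Loxl2, Loxl3 and Plod2 and protein sequences were not used here. Plots were made in Python 3.11.15 with matplotlib 3.10.9.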

Additional observations from a re-analysis of the deposited data

How the results depend on the processing

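The number of the 10 genes called was 5 in the fit reported and 3 to 7 under every other scaling, test, filter or threshold tried, the lowest of these with limma-voom (3, without Lox and Loxl2) and the highest with DESeq2 (7, with Loxl3 and Plod2). An adjusted p under 0.1 also gave 7. Over all genes the count was 694 in the fit reported, 428 with limma-voom, 1995 with DESeq2 and 1658 at an adjusted p under 0.1, and in the list of 38 tested pathway genes it was 8, with 15 by DESeq2 and 15 at an adjusted p under 0.1. The cause of these differences was not tested. Leaving out each pool in turn gave 0 to 6 of the 10 genes, 0 to 892 of all genes and 0 to 11 pathway genes. Without Mttp-IKO pool 2 no gene at all was called by edgeR, while 3221 had an unadjusted p under 0.05. Without control pool 1, control pool 3 or Mttp-IKO pool 1 the counts over all genes were 24, 21 and 55, and the lowest adjusted p among the 10 genes in these 4 fits was 0.0611 to 0.0914. In each of the 6 fits that left out a pool, 9 or 10 of the 10 log2 fold changes were below 0. The sign of Plod1 was reversed with total count scaling (-0.15) and without control pool 2 (-0.037) or control pool 3 (-0.0033), and its log2 fold change without single pools ranged from -0.037 to 0.104. No other of the 10 genes changed sign under any alternative.

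The replicate numbers of the labels were not taken as pairs, since the deviations of same-numbered pools correlated by 0.139, 0.112 and 0.00698 only. With the replicate block 5 of the 10 genes, 9 pathway genes and 592 of all genes were called. Relative to Col3a1 alone instead of 3 collagens, the ratio differed by 1.94 for Lox, 2.0 for Loxl2, 3.36 for P4ha1 and 1.73 for Serpinh1 on the log2 scale, the same direction as reported. Depth limits Lox and Plod2 most, with 28 to 64 reads per Mttp-IKO pool.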
